A study of Rattus norvegicus with 31 samples.

Results

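The 10 genes examined here were chosen as genes of Wnt and beta-catenin signalling and of the hepatocytes around the central vein. They were taken by name from the table of gene counts, which held 26312 genes, and each of Glul, Oat, Rhbg, Rgn, Axin2, Lgr5, Rnf43, Znrf3, Tbx3 and Ctnnb1 had 1 row and passed the filter that left 19904 genes for testing. Total RNA was sequenced from the livers of 31 female Wistar rats (Crl:WI) dosed daily by gavage for 28 days, 1 library per rat, in 7 groups. The control group (n = 8) received the carboxymethyl-cellulose vehicle alone. The single compounds were thiacloprid (THI, 108 mg/kg bw/day, n = 4), imazalil (IMZ, 93 mg/kg bw/day, n = 4) and clothianidin (CTD, 288 mg/kg bw/day, n = 3). Per the study's dosing scheme, at least 1 rat of this CTD group was killed when moribund. The binary mixtures were THI + IMZ (54 and 46 mg/kg bw/day), THI + CTD (54 and 134 mg/kg bw/day) and IMZ + CTD (46 and 135 mg/kg bw/day), with n = 4 in each. THI and CTD are neonicotinoid insecticides and IMZ is an azole fungicide. All rats were outbred animals of 1 strain and sex, and all 6 treatments were compared with the same 8 controls.

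Hepatocytes do different work along the lobule, from the portal tract to the central vein. Endothelial cells of the central vein secrete Wnt ligands and the R-spondin Rspo3. In the hepatocytes next to them, Frizzled and LRP receptors then spare beta-catenin from the destruction complex, so that it enters the nucleus and, with TCF/LEF factors, drives the pericentral genes. Glul and Oat, the ammonia and ornithine enzymes of the innermost cells, and Axin2 and Lgr5, direct Wnt target genes, are the usual readouts of this activity.

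The controls held 32726300 to 101230067 counts per library and the treated rats 31820322 to 54791509, so that the deepest libraries were controls. Albumin (Alb) stood between 102940 and 184170 CPM and the cholangiocyte keratin Krt19 between 1.54 and 5.15 CPM, so the libraries carried the transcripts of liver parenchyma. CPM is a count scaled to a library size common to all samples with TMM factors, and fold changes are log2 values with their standard errors (SE) from edgeR's quasi-likelihood fit, with p-values adjusted over all 19904 genes by Benjamini-Hochberg and a threshold of 0.05. CPM takes no account of transcript length, so levels are set side by side only within a gene. The p-values set each group difference against the spread between rats within groups, estimated over all 7 groups.

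Over the 6 comparisons with control, 4 of 60 member comparisons passed the threshold: Oat was lower after THI and after THI + CTD, and Rhbg was higher after CTD and after THI + CTD. THI called 1 member where 0.543% of all genes tested were called, CTD 1 member (12.7% of all genes) and THI + CTD 2 members (4.39% of all genes). IMZ called none in edgeR (0.251% of all genes; 3 members at an unadjusted p under 0.05, and 2 in the Wald test of DESeq2). THI + IMZ called none (1.18% of all genes; 4 members at an unadjusted p under 0.05, 0 in DESeq2), nor did IMZ + CTD (1.46% of all genes; 2 at an unadjusted p under 0.05, 0 in DESeq2). The median log2 fold change of the 10 members was -0.37 after THI, beside -0.01 over all genes, and -0.24 after IMZ, -0.21 after CTD, -0.16 after THI + IMZ, -0.04 after THI + CTD and 0.10 after IMZ + CTD.

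When the 6 treatments were averaged with equal weight, 3 of the 10 members differed from control (5.74% of all genes): Oat and Glul were lower and Rhbg was higher. A test for any difference among the 7 groups called 4 members, Oat, Glul, Rhbg and Rgn (9.51% of all genes). A test among the 6 treatments alone, without the controls, called 2, Rhbg and Rgn (5.82% of all genes). The log2 fold changes ranged from -1.75 for Lgr5 after THI to 1.34 for Rhbg after CTD.

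**Figure D1:**
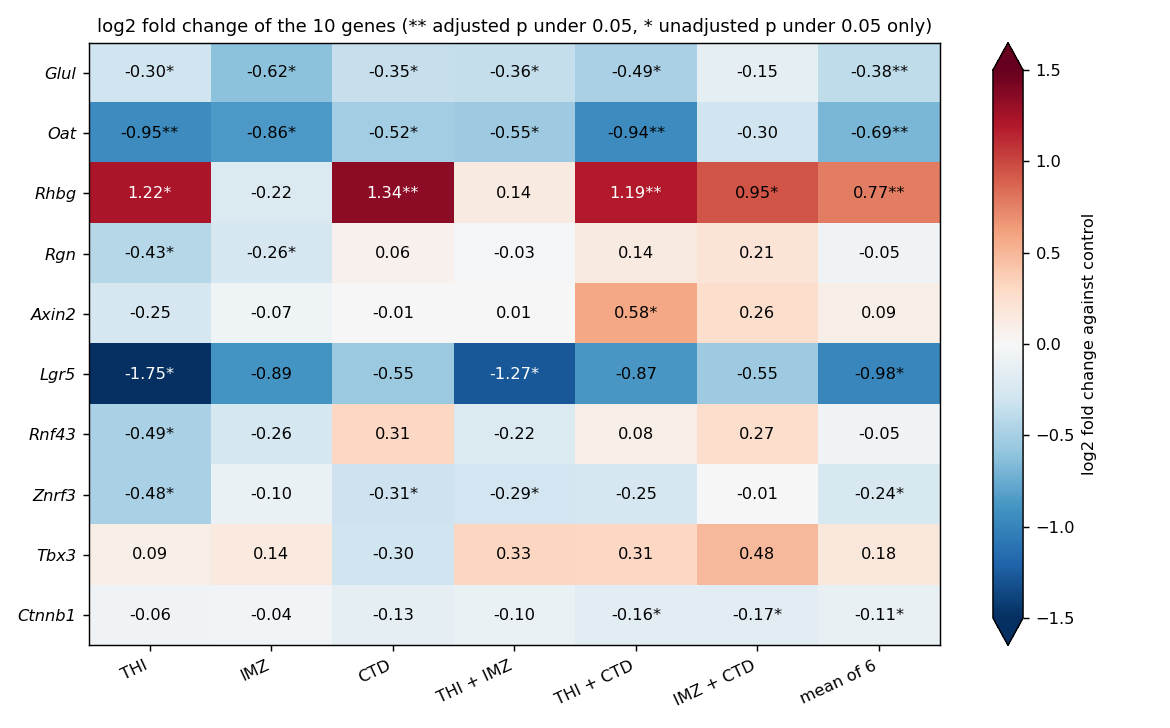
log2 fold change against control of the 10 genes (rows) after each of the 6 treatments and for their mean (columns), with colour from blue (lower) to red (higher). Double asterisks mark an adjusted p under 0.05 and single asterisks an unadjusted p under 0.05 only; the Oat row is below 0 in every column, and Rhbg is the one row with values above 1.

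The promoter windows of the genes on which the results turn are shown because beta-catenin reaches its target genes through TCF/LEF factors, whose core recognition sequence is ATCAAAG. Windows ran from 250 bases before to 50 bases after the annotated start (300 bases, 5′ to 3′ on the strand of the gene), taken from RefSeq on build GRCr8, whereas the counts were made on Rnor_5.0. RefSeq windows matched 7 of the 10 members, with 8 windows in all, and Lgr5, Tbx3 and Znrf3 had none. Capitals mark ATCAAAG or its reverse complement CTTTGAT.
Glul, chr13:68519250-68519549, plus strand: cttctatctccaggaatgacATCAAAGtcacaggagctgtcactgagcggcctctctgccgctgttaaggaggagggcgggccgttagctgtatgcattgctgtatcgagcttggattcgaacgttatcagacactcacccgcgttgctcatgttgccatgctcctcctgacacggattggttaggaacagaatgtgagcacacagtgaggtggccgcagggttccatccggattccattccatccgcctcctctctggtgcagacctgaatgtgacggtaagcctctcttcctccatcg
Axin2, chr10:94398535-94398834, plus strand: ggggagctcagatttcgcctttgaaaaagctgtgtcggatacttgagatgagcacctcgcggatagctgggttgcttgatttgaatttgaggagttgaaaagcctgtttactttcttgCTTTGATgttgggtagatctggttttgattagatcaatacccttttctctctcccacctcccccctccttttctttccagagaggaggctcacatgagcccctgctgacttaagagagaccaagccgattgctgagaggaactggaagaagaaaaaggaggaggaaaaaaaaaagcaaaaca
Oat, chr1:196797705-196798004, minus strand: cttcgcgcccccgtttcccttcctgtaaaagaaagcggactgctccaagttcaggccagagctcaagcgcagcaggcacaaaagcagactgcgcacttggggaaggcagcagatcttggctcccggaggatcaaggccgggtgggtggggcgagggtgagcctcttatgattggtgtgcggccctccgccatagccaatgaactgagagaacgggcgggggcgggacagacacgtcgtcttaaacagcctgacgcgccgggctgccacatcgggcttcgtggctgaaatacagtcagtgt
Rhbg, chr2:176015100-176015399, minus strand: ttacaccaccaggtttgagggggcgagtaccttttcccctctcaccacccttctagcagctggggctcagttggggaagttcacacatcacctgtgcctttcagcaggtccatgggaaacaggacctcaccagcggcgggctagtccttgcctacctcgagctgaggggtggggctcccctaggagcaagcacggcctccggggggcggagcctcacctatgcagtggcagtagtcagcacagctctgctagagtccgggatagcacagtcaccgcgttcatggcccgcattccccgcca
The motif was found in 2 of the 8 member windows. It began at position -230 in the printed Glul window and at -132, on the opposite strand, in Axin2. The printed Glul window belongs to the upstream of 2 annotated starts of that gene. The window of the downstream start (chr13:68575816-68576115, plus strand, not printed) held no copy. Which start was used in these livers was not examined. The windows of Oat, Rhbg, Rgn, Ctnnb1 and Rnf43 held no copy either. Of all 33469 RefSeq windows, 3.63% held it. A match of these letters is a description of the window and not of binding.

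Oat, ornithine aminotransferase, which turns ornithine into glutamate semialdehyde in the cells around the central vein, was the member with the most uniform direction. The controls ranged from 733 to 1242 CPM with a median of 1045. The rats on THI had 513, 466, 500 and 681 CPM, and those on THI + CTD had 679, 550, 624 and 317 CPM. Every rat of these groups was below the lowest control, as in 0.688% and 1.82% of all genes. Levels after IMZ were 370, 681, 775 and 466 CPM, after CTD 526, 649 and 1005 CPM, after THI + IMZ 387, 584, 932 and 954 CPM, and after IMZ + CTD 779, 734, 961 and 903 CPM. These 4 groups overlapped the controls, though all 23 treated rats were below the control median and 15 of them below every control.

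Oat fell to 0.518 of the control level after THI (log2 -0.95 ± 0.22 SE, adjusted p = 0.0381) and to 0.521 after THI + CTD (-0.94 ± 0.22, adjusted p = 0.0105). The other treatments did not pass: IMZ -0.86 ± 0.22 (adjusted p = 0.101), CTD -0.52 ± 0.24 (0.173), THI + IMZ -0.55 ± 0.22 (0.310) and IMZ + CTD -0.30 ± 0.22 (0.605). Their mean over the 6 treatments was 0.621 of control (log2 -0.69 ± 0.14, adjusted p = 0.00209), and the treatments did not differ from each other past the threshold (adjusted p = 0.277). In bulk liver, fewer cells of a type and less RNA per cell cannot be told apart. The THI call was lost without Control replicate 1, 3, 6, 7 or 8 (adjusted p of 0.0547 to 0.0668) or THI replicate 1, 2 or 3 (0.137 to 0.168), with fold changes between -0.96 and -0.89. The THI + CTD call was lost without THI + CTD replicate 4 (-0.76, adjusted p = 0.0593), the rat with the lowest Oat of all 31.

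Glul, glutamine synthetase, which fixes ammonia in the innermost ring of hepatocytes, moved in the same direction with a smaller size. Controls ranged from 357 to 621 CPM with a median of 470. The rats on IMZ had 348, 298, 266 and 331 CPM, all below the lowest control. Levels after THI were 398, 410, 327 and 416 CPM and after CTD 443, 311 and 369 CPM. The mixtures gave 351, 457, 387 and 297 CPM (THI + IMZ), 325, 440, 322 and 273 CPM (THI + CTD) and 354, 428, 528 and 411 CPM (IMZ + CTD). All groups but IMZ overlapped the controls, and 22 of the 23 treated rats were below the control median. Of all genes, 0.553% had every IMZ rat below all controls.

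For Glul the mean over the 6 treatments was 0.770 of control (log2 -0.38 ± 0.09, adjusted p = 0.0132), a call that held in each of 31 fits that left out 1 rat. No single treatment passed. IMZ came to -0.62 ± 0.15 (adjusted p = 0.0753), which passed without Control replicate 4 (0.0310) or THI + CTD replicate 2 (0.0496). THI + CTD came to -0.49 ± 0.15 (adjusted p = 0.0509), which passed in 11 of the 31 such fits, those without Control replicate 1, 4 or 7, THI 3, CTD 1 or 2, THI + IMZ 2 or 4, THI + CTD 2 or IMZ + CTD 1 or 3 (0.0225 to 0.0494). THI (-0.30), CTD (-0.35), THI + IMZ (-0.36) and IMZ + CTD (-0.15) had adjusted p-values of 0.170 to 0.699. The difference among the 7 groups was close to the threshold (adjusted p = 0.0425) and was lost in 18 of the 31 fits, with adjusted p-values up to 0.0906. Those were the fits without Control replicate 2, 3, 5, 6 or 8, THI 1, IMZ 2, 3 or 4, CTD 3, THI + IMZ 1 or 3, THI + CTD 1, 3 or 4, or IMZ + CTD 2, 3 or 4.

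Rhbg, an ammonium transporter of the pericentral hepatocyte membrane, went the opposite way from Oat and Glul. Control levels were 3.03 to 10.7 CPM with a median of 5.62. The rats on CTD had 21.4, 13.1 and 11.8 CPM, all above the highest control, as in 5.33% of all genes. Those on THI + CTD had 18.1, 11.4, 15.6 and 10.5 CPM and those on THI 16.5, 9.66, 20.3 and 10.5 CPM, with 3 and 2 rats above every control. IMZ + CTD was the most spread, at 5.17, 9.59, 11.2 and 21.1 CPM. The rats on IMZ (4.36, 4.22, 5.82 and 6.53 CPM) and on THI + IMZ (9.63, 4.43, 4.67 and 7.96 CPM) stayed within the control range.

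Rhbg rose 2.54-fold after CTD (log2 1.34 ± 0.33, adjusted p = 0.00653) and 2.29-fold after THI + CTD (1.19 ± 0.31, adjusted p = 0.0196). After THI it was 1.22 ± 0.31 (adjusted p = 0.0678) and after IMZ + CTD 0.95 ± 0.31 (0.138), while IMZ gave -0.22 ± 0.33 (0.891) and THI + IMZ 0.14 ± 0.32 (0.918). The test among the 6 treatments found a difference (adjusted p = 0.0282), as did that among the 7 groups (0.00364). THI and CTD, both neonicotinoids, were given at different doses, 108 and 288 mg/kg bw/day, so their values stand side by side without a test of one against the other. The mean over the treatments was 1.71-fold the control (log2 0.77 ± 0.22, adjusted p = 0.0360).

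Several of the Rhbg calls were lost or gained when 1 rat was left out. Without CTD replicate 1, which had the highest Rhbg of all 31 rats, CTD came to 1.03 (adjusted p = 0.105). Without THI + CTD replicate 1 or 3 the THI + CTD value was 1.04 or 1.13 (adjusted p = 0.0835 and 0.0775). The THI value passed without Control replicate 2 or 7 or IMZ + CTD replicate 1 or 4 (0.0250 to 0.0429), and IMZ + CTD passed without its own replicate 1 (1.20, adjusted p = 0.0422). The mean over treatments was lost without Control replicate 1, 3, 4, 5 or 6 or CTD replicate 1 (adjusted p of 0.05 to 0.0878), with values between 0.67 and 0.80 beside 0.77 with all rats. The difference among the 6 treatments was lost without IMZ replicate 1, 2 or 3, CTD replicate 1 or THI + IMZ replicate 2 or 3 (0.0506 to 0.0705).

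Rgn, regucalcin, a calcium-binding lactonase of the ascorbate pathway, differed between treatments more than from control. Controls ranged from 272 to 467 CPM with a median of 361. THI rats had 248, 301, 234 and 281 CPM and IMZ rats 261, 296, 330 and 316 CPM. After IMZ + CTD the levels were 378, 429, 458 and 396 CPM, after THI + CTD 425, 414, 424 and 319 CPM, after CTD 332, 391 and 402 CPM and after THI + IMZ 245, 357, 391 and 413 CPM. Every treated group overlapped the controls.

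Against control, Rgn was -0.43 ± 0.12 after THI (adjusted p = 0.149), -0.26 ± 0.12 after IMZ (0.601) and 0.21 ± 0.12 after IMZ + CTD (0.489), and the others lay between -0.03 and 0.14. The test among the 6 treatments gave an adjusted p of 0.0181, and that among the 7 groups 0.0184. Without THI replicate 3, which had the lowest level of all rats, these became 0.0524 and 0.0542.

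**Figure D2:**
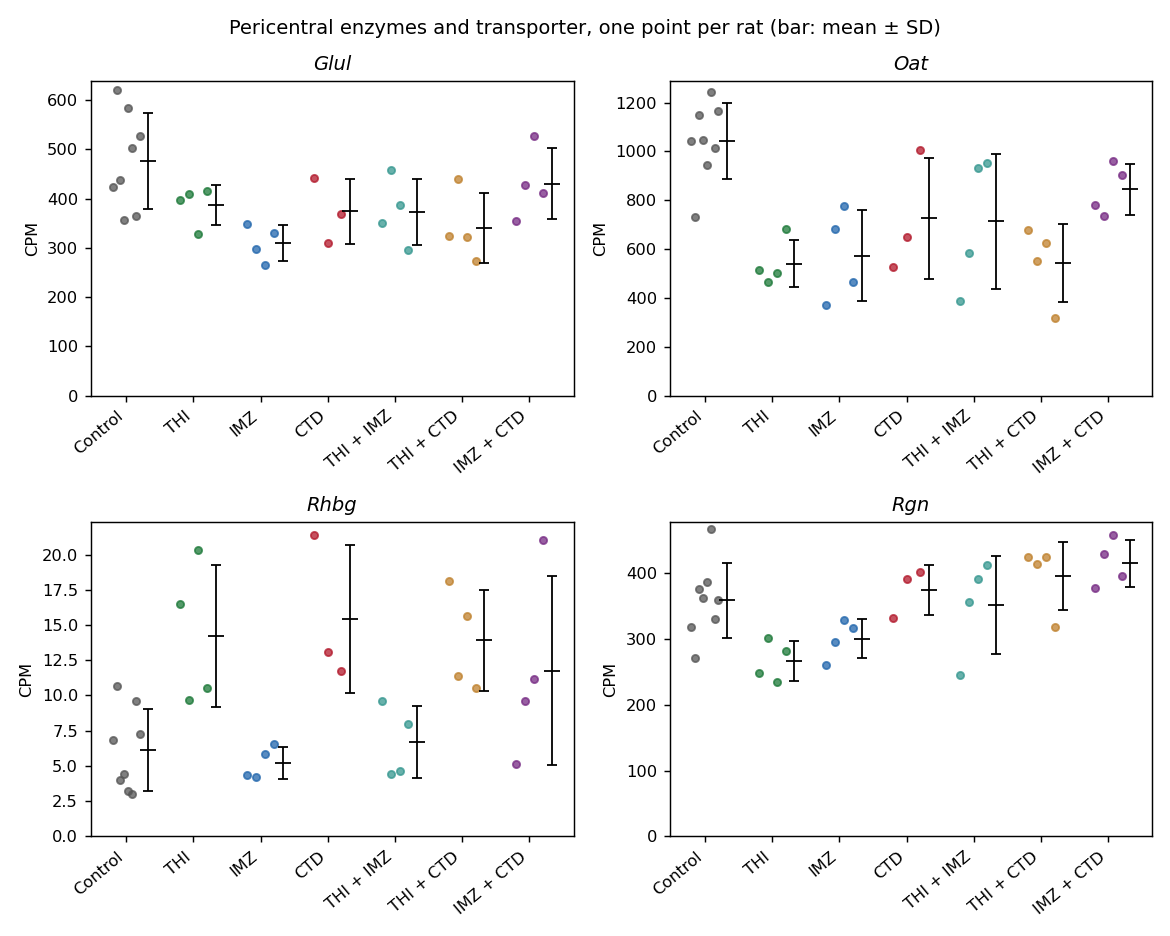
CPM (vertical axis, from 0) of Glul, Oat, Rhbg and Rgn in each of the 31 rats by group (horizontal axis), with the mean ± SD of each group as a black bar. The THI and THI + CTD rats lie below all controls for Oat, the IMZ rats below all controls for Glul and the CTD rats above all controls for Rhbg.

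The feedback genes of the pathway are induced by beta-catenin and damp or tune it. Axin2, a scaffold of the destruction complex and a direct Wnt target, had 4.96 to 9.44 CPM in the controls, with a median of 7.29. The rats on THI + CTD had 9.18, 11.3, 11.5 and 13.3 CPM, of which 3 were above every control. IMZ + CTD gave 11.2, 10.6, 7.85 and 6.74 CPM and THI + IMZ 12.5, 7.14, 5.70 and 5.11 CPM, and THI, IMZ and CTD lay between 4.96 and 8.35 CPM. All groups overlapped the controls. The difference after THI + CTD was 0.58 ± 0.18 (adjusted p = 0.0582). In the main edgeR fit, of all 31 rats and 19904 genes, no comparison called Axin2. DESeq2 called it after THI + CTD (adjusted p = 0.0273), as did edgeR with its own low-count filter (0.0473), with only the groups compared (0.0209), with counts thinned to the total of the smallest library (0.0268) and without Control replicate 4 or 6, THI + IMZ 1 or 4, or THI + CTD 1 (0.0173 to 0.0495). Without THI + IMZ replicate 1, the highest of its group at 12.5 CPM, Axin2 also differed among the 6 treatments (adjusted p = 0.00767, 0.0869 with it) and among the 7 groups (0.00669, 0.0851 with it).

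Lgr5, the R-spondin receptor of pericentral hepatocytes, was close to the limit of detection. The libraries held 1 to 44 counts of it each, or 0.0917 to 0.635 CPM in the controls (median 0.356) and 0.0260 to 0.465 CPM in the treated rats. THI gave 0.0808, 0.0375, 0.165 and 0.167 CPM. Of the 23 treated rats, 19 were below the control median, but every group overlapped the controls. The log2 difference was -1.75 ± 0.65 after THI (unadjusted p = 0.0117, adjusted p = 0.391), -1.27 ± 0.62 after THI + IMZ (0.450) and -0.98 ± 0.37 as the mean over treatments (unadjusted p = 0.0125, adjusted p = 0.114), and none passed. Its biological coefficient of variation, the spread between rats beyond counting error, was 59.4%. The common value fitted over all genes was 19.4%, and genes of a like low level were not examined separately.

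Rnf43 and Znrf3 encode membrane ubiquitin ligases that remove Frizzled receptors from the cell surface. Znrf3 had 4.67 to 8.08 CPM in the controls (median 6.86) and 5.50, 4.65, 4.38 and 4.29 CPM after THI, where 3 of 4 rats were below every control. The fold change was -0.48 ± 0.13 after THI (adjusted p = 0.0881), which passed without Control replicate 4 (0.0185) and in DESeq2 (0.0252). Its mean over treatments was -0.24 ± 0.08 (adjusted p = 0.0785) and passed without Control replicate 4 (0.0171) or IMZ + CTD replicate 1 (0.0424). The difference among the 7 groups (0.0776) also passed without Control replicate 4 (0.0202), the control with the lowest Znrf3. All other groups ranged from 4.77 to 8.24 CPM, and 22 of the 23 treated rats were below the control median.

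Rnf43 spread more widely, from 6.16 to 11.8 CPM in the controls (median 7.98). THI rats had 3.83, 7.15, 4.55 and 8.48 CPM and CTD rats 8.12, 13.7 and 9.75 CPM, and all groups overlapped the controls. The differences ran from -0.49 ± 0.20 after THI (adjusted p = 0.463) to 0.31 ± 0.21 after CTD (0.391). The treatments did not differ past the threshold (adjusted p = 0.102), except without THI replicate 4 (0.0448, and 0.0460 among the 7 groups).

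Tbx3, a T-box repressor that beta-catenin maintains in pericentral hepatocytes, had 8.35 to 14.1 CPM in the controls (median 11.3). The rats on IMZ + CTD had 16.2, 17.97, 16.05 and 12.4 CPM and those on THI + CTD 14.6, 9.59, 8.56 and 22.9 CPM. Of the 23 treated rats, 11 were above every control and 3 below, with both kinds in the THI group (5.39, 17.1, 14.4 and 10.6 CPM) and in the THI + IMZ group (18.01, 19.4, 11.4 and 7.41 CPM). IMZ + CTD came to 0.48 ± 0.25 (adjusted p = 0.422), and no alternative setting called Tbx3.

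Ctnnb1 encodes beta-catenin itself, whose activity is set mainly by protein stability and not by its transcript. It was the steadiest member, with 290 to 342 CPM in the controls (median 303) and a biological coefficient of variation of 8.46%. The rats on THI + CTD had 266, 280, 290 and 263 CPM and those on IMZ + CTD 289, 260, 288 and 252 CPM, all below the lowest control, as in 1.82% and 1.01% of all genes. The highest THI + CTD value, 290.35 CPM, and the lowest control, 290.42 CPM, were nearly equal. The log2 differences were small, -0.16 ± 0.06 (adjusted p = 0.176) and -0.17 ± 0.06 (0.211), or 0.898 and 0.890 of control, and did not pass. Over the 6 treatments the mean was 0.928 of control (adjusted p = 0.124), with 19 of 23 treated rats below the control median.

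**Figure D3:**
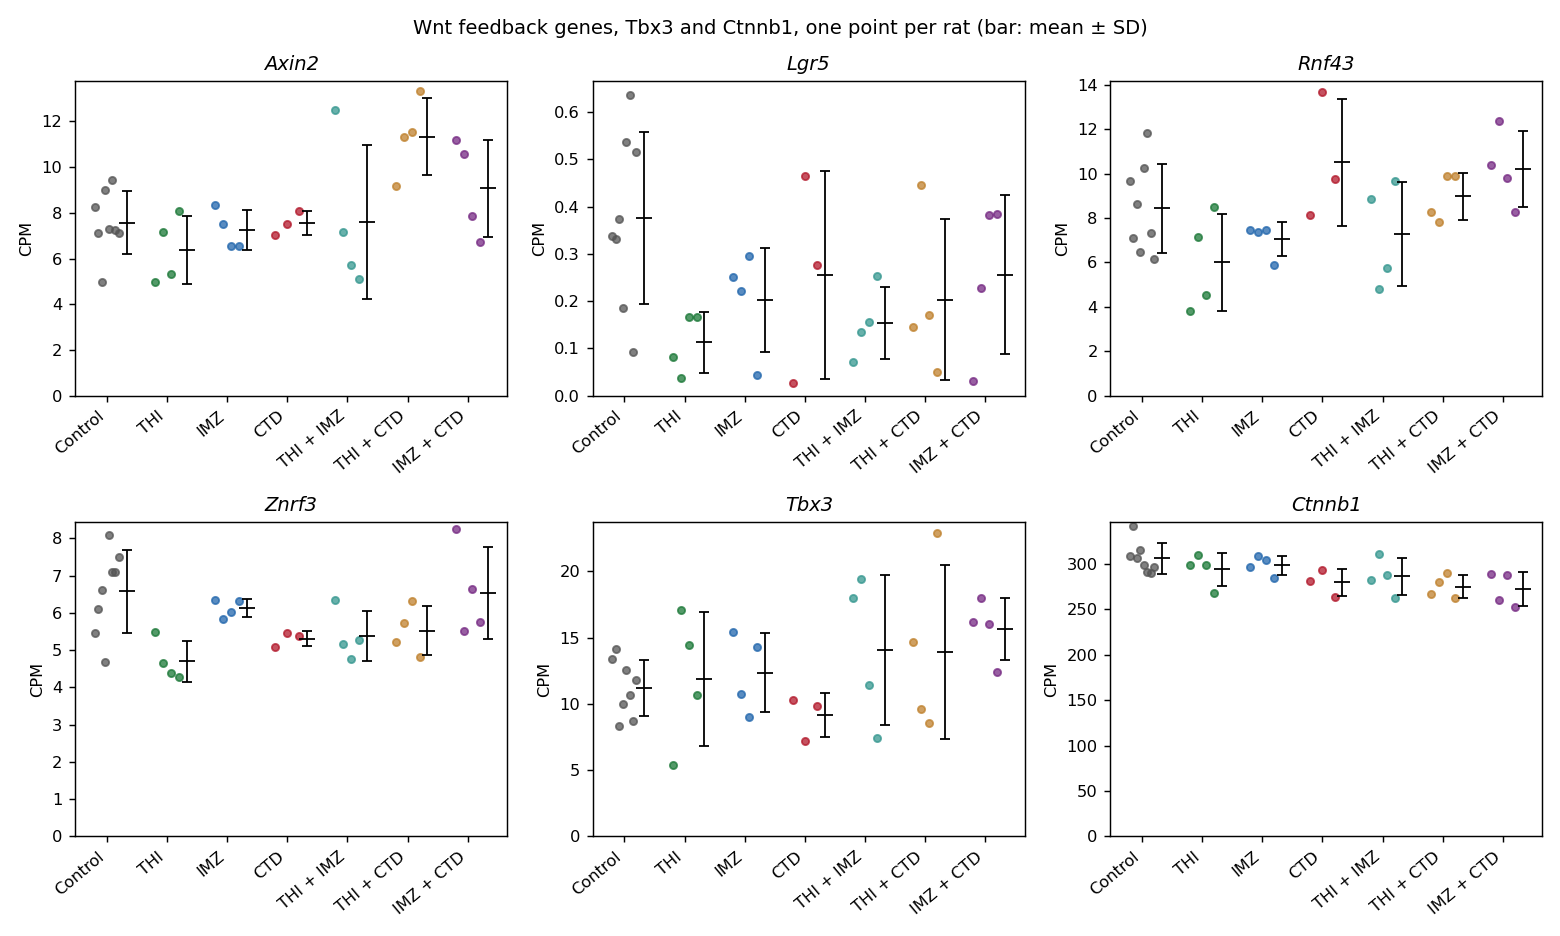
CPM (vertical axis, from 0) of Axin2, Lgr5, Rnf43, Znrf3, Tbx3 and Ctnnb1 in each of the 31 rats by group (horizontal axis), with the mean ± SD of each group as a black bar. Axin2 is highest in THI + CTD with 9.18 to 13.3 CPM, and Ctnnb1 stays between 252 and 342 CPM in all rats.

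The order of the group means was not the same for the 4 pericentral enzymes and transporter. For Glul it ran from IMZ (311 ± 36.2 SD, n = 4) to control (477 ± 97.6, n = 8), and for Oat from THI (540 ± 96.3, n = 4) to control (1042 ± 157, n = 8). For Rhbg it ran from IMZ (5.23 ± 1.13) to CTD (15.4 ± 5.24, n = 3), and for Rgn from THI (266 ± 30.3) to IMZ + CTD (415 ± 35.6). For every one of the 10 members the ranges of neighbouring groups in the order of means overlapped.

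Next, the 3 mixtures were set against the sum expected from the single compounds at their doses, computed on the log2 scale with a weight of 0.5 for the THI or IMZ fold change and of 0.47 for that of CTD, so that THI + IMZ was set against 0.5 of each of its compounds. No member differed from this sum in the main edgeR fit. The count was 0 of 10 after THI + IMZ (0.0151% of all genes, 1 at an unadjusted p under 0.05, 0 in DESeq2). It was also 0 after THI + CTD (0.286%, 2 unadjusted, 1 in DESeq2) and 0 after IMZ + CTD (1.16%, 3 unadjusted, 0 in DESeq2). Axin2 after THI + CTD had the largest difference, 0.58 observed beside -0.13 from the sum (difference 0.71 ± 0.18, 95% interval 0.33 to 1.08, adjusted p = 0.102). DESeq2 called it (0.0279), as did the fit of only those groups (0.0422) and the one without THI + IMZ replicate 1 (0.0264).

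Rgn was above the sum by 0.31 to 0.33 in all 3 mixtures, with adjusted p-values of 0.225 to 0.617. Rhbg after THI + CTD (1.19) lay beside its sum of 1.24, with an interval of the difference from -0.70 to 0.61. The difference of Oat from its sum was 0.36 after THI + IMZ, -0.22 after THI + CTD and 0.37 after IMZ + CTD, with each interval spanning 0.

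**Figure D4:**
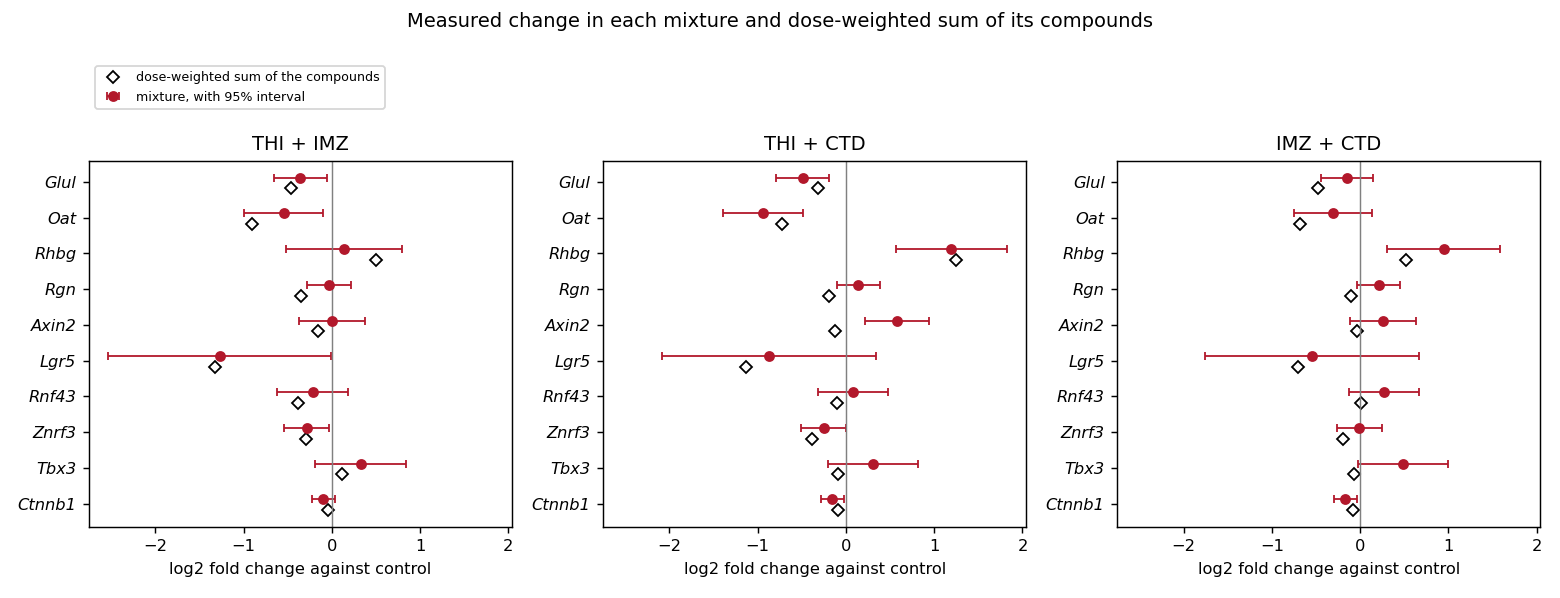
log2 fold change against control (horizontal axis) of the 10 genes (rows) after each mixture (panels), as red points with 95% intervals, beside the dose-weighted sum of the single compounds (open diamonds). The sum, whose own error is not drawn, lies outside the interval of the mixture in 6 of 30 cases. These are Rgn in all 3 mixtures, Axin2 after THI + CTD, and Glul and Tbx3 after IMZ + CTD. None of these differences passed the test in the main edgeR fit.

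Other genes of the pathway were taken from lists. Their calls are read beside the share of all genes called, 12.7% after CTD, 4.39% after THI + CTD and 5.74% for the mean. Of the 21 Wnt ligands, R-spondins and secretion factors tested, 1 was called after CTD, Wnt5a, a ligand known for beta-catenin-independent signalling (log2 1.44 ± 0.38, adjusted p = 0.00911, 0.0925 to 0.415 CPM in controls and 0.390 to 0.831 after CTD), and 0 after the other treatments (0 to 3 at an unadjusted p under 0.05). Without CTD replicate 3, Wnt5a came to 1.10 (adjusted p = 0.101). Wnt2, Wnt9b and Rspo3, the ligands of central vein endothelium and named for that role after their values were seen, had mean differences over the treatments of 0.24 ± 0.16, 0.33 ± 0.21 and -0.06 ± 0.12, with adjusted p-values of 0.367 to 0.817.

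Of the 16 receptors, CTD lowered Ror2, a Wnt5a receptor (-1.44 ± 0.33, adjusted p = 0.00340), and Lrp5, the Wnt co-receptor (-0.59 ± 0.16, adjusted p = 0.0103), and raised Ryk (0.22 ± 0.07, adjusted p = 0.0410). Ror2 was also lower after THI + CTD (-1.08 ± 0.29, adjusted p = 0.0225). CTD called 3 of the 16 receptors (12.7% of all genes) and THI + CTD 1 (4.39%). Lrp5 had 161 to 208 CPM after CTD beside 238 to 302 CPM in the controls. As the mean over treatments Ror2 was lower (-0.85 ± 0.17, adjusted p = 0.00261), and the other 4 treatments called 0 of the 16 (1 to 3 at an unadjusted p under 0.05). The R-spondin receptor Lgr6 was also called for the mean (-2.75 ± 0.74, adjusted p = 0.0205), but 1 rat decided it. Control replicate 3 had 0.678 CPM of Lgr6 beside a control median of 0.0232, and 16 of the 31 libraries held no count of it. Without that control the difference was -1.24 (adjusted p = 0.324). Ror2 after CTD and for the mean was called in each of the 31 fits that left out 1 rat. Ror2 after THI + CTD was lost without THI + CTD replicate 2 or 3 (adjusted p up to 0.113) and Lrp5 without CTD replicate 1 (0.0900). Ryk was lost without Control replicate 3, 5, 7 or 8 or CTD replicate 2 or 3 (0.0528 to 0.308).

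Of 16 genes of the destruction complex and Dishevelled, Gsk3b (0.35 ± 0.11, adjusted p = 0.0399) and Fbxw11 (0.23 ± 0.08, adjusted p = 0.0451) rose after CTD. Csnk1e rose after THI + CTD (0.31 ± 0.09, adjusted p = 0.0345). The 2 of 16 called after CTD were near the 12.7% of all genes called there, and THI + CTD called 1 (4.39%). Of 16 partners of beta-catenin in the nucleus or at the membrane, CTD lowered the co-repressor Tle3 (-1.07 ± 0.23, adjusted p = 0.00157) and the adhesion protein E-cadherin, Cdh1 (-0.50 ± 0.14, adjusted p = 0.0127). Cdh1, which holds beta-catenin at cell junctions, was also lower after THI + CTD (-0.42 ± 0.12, adjusted p = 0.0423). The partners called were 2 of 16 after CTD, near the 12.7% of all genes, and 1 after THI + CTD (4.39%). Tle3 after CTD was called in each of the 31 fits that left out 1 rat. The calls of Gsk3b, Fbxw11 and Csnk1e were lost in 5, 12 and 7 of them, and with only the groups compared (adjusted p of 0.0763, 0.124 and 0.0582). Those of Cdh1 were lost without CTD replicate 1 or 2 (0.0748 and 0.0977) and, after THI + CTD, in 9 of the 31 fits (up to 0.143). As the mean over treatments Cdh1 was lower (-0.38, adjusted p = 0.00257), a call that held in each of the 31 fits.

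Of 14 secreted and feedback inhibitors, no single treatment called any (2 to 4 at an unadjusted p under 0.05). As the mean over treatments Notum, a Wnt deacylase, was lower (-0.33 ± 0.09, adjusted p = 0.0270), which was lost without Control replicate 6, 7 or 8 (0.0691 to 0.0781). Sfrp2, a Wnt-binding protein, was called too (-1.98 ± 0.57, adjusted p = 0.0322), and here 1 control again decided the value. Control replicate 1 had 1.03 CPM of Sfrp2 beside a control median of 0.107, and without it the difference was -1.03 (adjusted p = 0.320). The call was also lost without Control replicate 3 (-1.89, adjusted p = 0.0671), and without CTD replicate 2 the value was -2.62. The shares of all genes called in these comparisons are those given above.

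The 18 other pericentral hepatocyte genes moved in both directions. THI lowered 2 of them, Cyp7a1, the rate-limiting enzyme of bile acid synthesis (-2.45 ± 0.55, adjusted p = 0.0275), and the vasopressin receptor Avpr1a (-0.68 ± 0.16, adjusted p = 0.0370). CTD raised Nr1i3, the xenobiotic receptor CAR (1.10 ± 0.29, adjusted p = 0.00987), the carbonic anhydrase Car2 (0.74 ± 0.15, adjusted p = 0.00113) and Gas2 (0.40 ± 0.13, adjusted p = 0.0372) and lowered Lhpp (-0.57 ± 0.11, adjusted p = 0.000442). THI + CTD raised Car2 (0.83 ± 0.14, adjusted p = 0.000460) and Nr1i3 (1.37 ± 0.26, adjusted p = 0.00195), and THI + IMZ raised Nr1i3 (1.24 ± 0.26, adjusted p = 0.0122) and lowered Cyp7a1 (-2.90 ± 0.56, adjusted p = 0.00551). IMZ and IMZ + CTD called 0 of 18 (4 and 5 at an unadjusted p under 0.05). The calls of Lhpp, of Car2, of Cyp7a1 after THI + IMZ and of Nr1i3 after both mixtures held in each of the 31 fits that left out 1 rat. Cyp7a1 after THI was lost without any 1 of the 4 THI rats (adjusted p of 0.0577 to 0.118, log2 -2.67 to -2.18) and Nr1i3 after CTD without CTD replicate 2 or 3 (0.0661 and 0.0704). Avpr1a was lost in 8 of the fits and Gas2 in 6 (up to 0.216 and 0.129). The list median stayed between -0.13 and 0.06 in all 6 comparisons. CTD called 4 of the 18 where 12.7% of all genes were called, and THI + CTD 2 (4.39%). THI called 2 (0.543%) and THI + IMZ 2 (1.18%).

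Periportal hepatocyte genes served as the opposite zone. Of 20 tested, 7 were lower after CTD, with Etnppl (-0.91 ± 0.18, adjusted p = 0.000876), Ass1 of the urea cycle (-0.58 ± 0.14, adjusted p = 0.00644), the serine dehydratase Sds (-2.04 ± 0.51, adjusted p = 0.00648) and the histidase Hal (-0.64 ± 0.16, adjusted p = 0.00719) having the smallest p-values. After THI + CTD 4 were lower, Hal, Etnppl, the tyrosine aminotransferase Tat and Aldh1b1 (-0.89 to -1.01). The other 4 treatments called none (5 to 8 at an unadjusted p under 0.05), and no periportal gene was called higher. The share of all genes called was 12.7% after CTD and 4.39% after THI + CTD. The list median was -0.39 after CTD and -0.24 after THI + CTD, beside -0.07 and -0.03 for all genes. It was -0.20 after THI, -0.14 after IMZ, -0.13 after THI + IMZ and -0.17 after IMZ + CTD, beside -0.01 to -0.03 for all genes. After CTD, Etnppl and Sds were called in each of the 31 fits that left out 1 rat, whereas Ass1 was lost without CTD replicate 1 (log2 -0.43, adjusted p = 0.09996) and Hal without CTD replicate 1 or 2 (0.0562 and 0.0922). After THI + CTD, Aldh1b1 was lost without THI + CTD replicate 4 (0.0577) and the other 3 held.

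**Figure D5:**
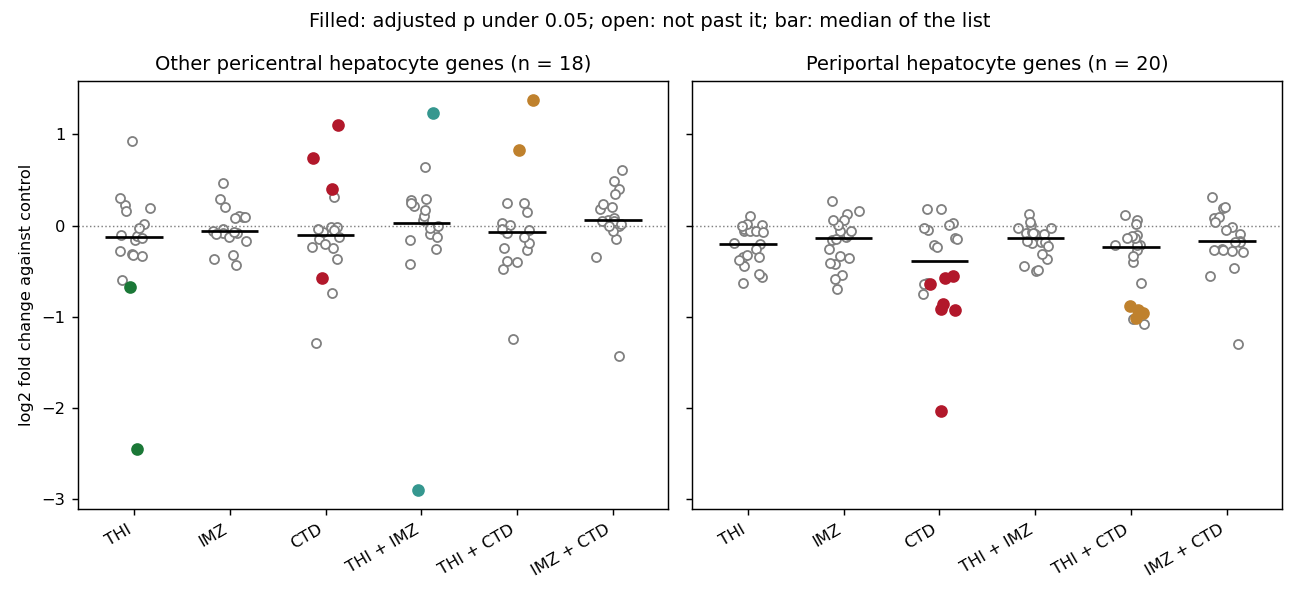
log2 fold change against control (vertical axis) of each of 18 other pericentral genes (left) and 20 periportal genes (right) after the 6 treatments (horizontal axis). Filled points passed an adjusted p of 0.05, open points did not, and black bars are list medians; the periportal median after CTD is -0.39 and the filled periportal points all lie below 0.

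Markers of dividing cells and of cell types were read in the same libraries. Of 12 cell division genes, 11 were higher after CTD (12.7% of all genes called) and 10 after THI + CTD (4.39%). After IMZ + CTD 9 were higher (1.46%) and after THI + IMZ 8 (1.18%). IMZ called 0 of the 12 but had a list median of 1.45 and 10 of 12 at an unadjusted p under 0.05. THI had a median of -0.02 and 0 of 12 at that level. The summed level of the 12 genes was 34.7 to 56.6 CPM in the controls and 27.3 to 55.6 after THI. It was 50.2 to 79.7 CPM after IMZ, 84.3 to 235 after CTD, 52.2 to 129 after THI + IMZ, 65.0 to 127 after THI + CTD and 61.8 to 112 after IMZ + CTD. After THI + IMZ only Cdk1 was called in each of the 31 fits that left out 1 rat. Bub1 was lost there in 15 fits, Mki67 in 5 and Cenpf in 4 (adjusted p up to 0.458). Plk1, Ccnb1, Ccna2 and Top2a were each lost in 1. After CTD Plk1 and Birc5 were lost in 1 fit each, and after THI + CTD Cenpf in 1. After IMZ + CTD Cenpf was lost in 2 fits and Mki67, Ccna2, Bub1 and Aurkb in 1 each.

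The other marker lists held few called genes, and the counts after CTD and THI + CTD are read beside the 12.7% and 4.39% of all genes called there. Of 8 Kupffer cell markers, 2 were lower after CTD and 2 after THI + CTD, with sums of 363 to 611 CPM in the controls, 305 to 485 after CTD and 306 to 427 after THI + CTD. Of 12 endothelial markers, 2 were lower after CTD and 1 after THI + CTD, with sums of 370 to 468, 322 to 409 and 339 to 405 CPM. Of 9 hepatocyte markers, 1 was lower after CTD and 2 after THI + CTD, and of 11 stellate cell and fibroblast markers, 1 was higher and 1 lower in each. No cholangiocyte marker of 7 was called (1 at an unadjusted p under 0.05 after CTD and 1 after THI + CTD). Kdr after CTD and Serpina1 after THI + CTD held in each of the 31 fits that left out 1 rat. The other calls after CTD or THI + CTD were lost in 1 to 10 of them. After IMZ (0.251% of all genes called) the stellate marker Rgs5 was higher (0.76, adjusted p = 0.0343, lost in 7 fits). After THI + IMZ (1.18%) Rgs5 (0.92, adjusted p = 0.00225, lost in 0) and the hepatocyte marker Apoa1 (0.85, 0.0121, lost in 2) were higher. IMZ + CTD called no marker of these lists. After THI no list held a called marker, with 5 of the 11 stellate cell and fibroblast markers at an unadjusted p under 0.05 and 0 in the other lists. The part of these changes in the Rhbg and Oat results was not tested.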

How the data were processed

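Livers of 31 rats were sequenced as total RNA. Per the labels and the study's methods, the authors made stranded TruSeq libraries, trimmed adapters with Skewer 0.2.2, checked quality with FastQC 0.11.5 and mapped and counted reads per gene with STAR 2.5.2b on Rnor_5.0. The annotation release and the strand setting of the counting are not given in the sources used here. The deposited raw counts of 26312 genes were the input. A second deposited table gave the signal of 19904 genes, and its values equalled the counts divided by a DESeq2 (1.15.1) size factor per library within a relative deviation of 5.3e-15, so it was used only for that check. No libraries were identical.

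Genes whose counts summed to 2 or more over the 31 libraries were fitted with edgeR 4.0.16 (TMM, 7 group means in 1 model, quasi-likelihood F tests), and p-values were adjusted over all 19904 genes with a threshold of 0.05. Contrasts were each treatment against control, the mean of 6 treatments, omnibus tests and each mixture against its dose-weighted sum. Alternatives were DESeq2 size factors, 2 other filters, the DESeq2 1.42.0 Wald test, only the groups compared, a replicate block, thinned counts and leaving out each rat. For the genes of the lists, leaving out rats and fitting only the groups compared were chosen after seeing the data. The tests were checked on simulated counts. Groups came from the labels.

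The members and the gene lists were chosen with earlier results of these data known. All 10 members were named, and of the lists the genes called, or the 4 with the smallest p where more were called. The lists were Wnt ligands, receptors, destruction complex, beta-catenin partners, inhibitors, other pericentral genes, periportal genes, cell division genes and markers of hepatocytes, endothelial, stellate, Kupffer and cholangiocyte cells, of which 178 of 191 genes could be tested. Depth was 31820322 to 101230067 counts per library. Figures were drawn with matplotlib 3.10.9.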

Additional observations from a re-analysis of the deposited data

Results flagged for a closer look

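In 3 of the 60 groups of 4 to 8 rats examined, 1 rat stood apart from the rest by Dixon's test at the 95% level, which chance alone gives in about 1 in 20 groups. Axin2 in Control replicate 3 was 4.96 CPM, beside 7.12 to 9.44 in the other controls. Rgn in THI + CTD replicate 4 was 319 CPM, beside 414 to 425 in the other rats, and the same rat had the lowest Oat of all 31 (317 CPM). Rnf43 in IMZ replicate 4 was 5.88 CPM, beside 7.38 to 7.47.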

How the results depend on the processing

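The mean fall of Oat and Glul and the rise of Rhbg after CTD kept their direction under every alternative, and no call reversed. DESeq2 size factors and no filter changed no member call. The DESeq2 Wald test called 4 members after THI (Oat, Rhbg, Rgn, Znrf3), 2 after IMZ (Oat, Glul), 4 after THI + CTD (Oat, Rhbg, Glul, Axin2) and 1 against the THI + CTD sum (Axin2). edgeR's filterByExpr called 4 after THI + CTD, and fitting only the groups compared called 1 after IMZ (Oat) and 1 against the THI + CTD sum. With thinned counts Glul no longer differed among the 7 groups (adjusted p = 0.0539) and Axin2 did (0.0494). Leaving out each rat gave 0 to 2 members after THI, 0 to 1 after IMZ, CTD and IMZ + CTD, 1 to 4 after THI + CTD, 2 to 4 for the mean, 3 to 5 among the 7 groups, 1 to 3 among the 6 treatments and 0 to 1 against the THI + CTD sum. Over the other alternatives the adjusted p of Oat ranged from 0.00169 to 0.175 after THI.

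Of 78 same-numbered pairs of rats from different groups, 13 correlated over 0.1 (median 0.0169, highest 0.363). Differently numbered pairs were not examined, so whether the replicate numbers pair rats was not tested. A replicate block called 0 members after THI, 0 after THI + CTD, 0 for the mean and 2 among the 7 groups. It leaves only 4 controls, since Control replicates 5 to 8 share a number with no treated rat. The cause of the other changes was not tested.

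Over all genes, DESeq2 called 199 after THI (108 in edgeR; 109 higher, 90 lower), 150 after IMZ (50; 83 higher, 67 lower), 435 after THI + IMZ (235), 1386 after THI + CTD (873), 567 after IMZ + CTD (290; 333 higher, 234 lower), and 54, 174 and 603 against the sums (3, 57 and 230). The block called 45, 23, 1571, 53, 348 and 80 in the order THI, IMZ, CTD, THI + IMZ, THI + CTD and IMZ + CTD, 240 for the mean, 1216 among the 7 groups and 6 against the THI + IMZ sum. Only the groups compared gave 93 after IMZ, and filterByExpr 391 against the IMZ + CTD sum. Fitting only the groups compared was not run for the mean and the 7 groups, where it equals the fit of all rats, nor was DESeq2 for the omnibus tests, and DESeq2 gave Lgr5 no adjusted p against the sums of THI + CTD and IMZ + CTD. Lgr5 rests on 1 to 44 counts per library.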

Other observations

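Within groups, Oat and Rgn, which lie on different chromosomes, varied together across the 31 rats (Pearson r = 0.76 on log2 CPM with group means subtracted), with the values of both low in THI + CTD replicate 4 and THI + IMZ replicate 1. Oat and Tbx3 varied in opposite directions (r = -0.59), and Axin2 and Tbx3 (r = 0.49) and Lgr5 and Oat (r = 0.47) in the same direction. These are descriptions over 31 libraries, with no test, and within a library all genes share its scaling factor.

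The genes with an average above 1 CPM whose pattern over the 31 rats was most like that of Glul were Ifi35 (r = 0.70, 0.56 with group means subtracted), Hgd (0.68, 0.49), Uqcrh (0.62, 0.30), Tcn2 (0.61, 0.46) and Cst3 (0.60, 0.54). Those most like Axin2 were Dido1 (0.74, 0.73), Wdr37 (0.73, 0.70), Usp38 (0.68, 0.67), Ppp1r13b (0.68, 0.66) and Kcnk5 (0.68, 0.61). No gene of the pathway or zonation lists was among them.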
